A study of Mus musculus with 4 samples.

Results

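Lipid-handling tumor macrophages are marked by 10 genes, which were followed by symbol through single-cell libraries from mice without S100a8 in their blood cells. These are Spp1, Trem2, Gpnmb, Apoe, Fabp4, Fabp5, Lpl, Cd36, Cd9 and Lgals3. All are among the 33448 gene symbols counted, and all were followed in all 4 libraries. The KO mice were S100a8fl/flVav-Cre+/- and the WT mice S100a8fl/flVav-Cre-/-, so both genotypes carry the floxed S100a8 alleles, and the KO alone carries Vav-Cre, a recombinase driven by a promoter active across the hematopoietic system. CD45+ cells, that is leukocytes, were sorted from tumor-free bone marrow or from tumors of LLC, the Lewis lung carcinoma line of C57BL/6 origin. Each genotype and tissue is 1 library pooled from 3 mice, so no difference below has a replicate check. The labels used here give no age. The 95% intervals cover counting error only, not the spread between mice.

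Macrophages that take up dying cells, lipoproteins and membrane debris handle the cholesterol and fatty acids that follow. Spp1 (osteopontin) is a secreted ligand of integrins and CD44. Trem2 is a receptor for lipids and lipoproteins that signals through the adaptor Tyrobp. Gpnmb is a lysosomal and surface glycoprotein, Cd9 a tetraspanin that organises membrane proteins, and Lgals3 a galectin that binds glycans and damaged lysosomes. Apoe carries cholesterol out of cells, Lpl (lipoprotein lipase) releases fatty acids from triglyceride-rich lipoproteins, Cd36 takes up fatty acids and oxidised lipoproteins, and Fabp4 and Fabp5 bind fatty acids inside the cell. Genes of this set are known together from lipid-associated macrophages of fat, plaques and tumors.

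The promoters of 4 members are shown because their levels in the summed tumor monocyte/macrophage-like class sat apart: Spp1 and Gpnmb were higher in KO, Cd36 lower, and Trem2 within 1.5-fold of WT. Each run is the 250 bases before the RefSeq start, 5′ to 3′ on the gene's strand (RefSeq, GRCm38.p6). Capitals mark matches, on either strand, to 4 short motifs. They are CACGTG (the E-box read by MITF and TFE factors) and TGANTCA (a loose AP-1-like pattern, N being any base). The others are AGGTCA (the nuclear receptor element) and GAGGAAGT (the PU.1 element). The positions are chr5:104434861-104435110 (+) for Spp1, chr6:49036268-49036517 (+) for Gpnmb, chr17:48346151-48346400 (+) for Trem2 and chr5:17835897-17836146 (-) for Cd36.
Spp1: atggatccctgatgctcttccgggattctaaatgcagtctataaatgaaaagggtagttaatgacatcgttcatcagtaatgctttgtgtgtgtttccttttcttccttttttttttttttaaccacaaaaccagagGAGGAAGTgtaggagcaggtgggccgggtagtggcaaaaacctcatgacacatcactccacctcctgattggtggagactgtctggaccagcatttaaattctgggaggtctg
Gpnmb: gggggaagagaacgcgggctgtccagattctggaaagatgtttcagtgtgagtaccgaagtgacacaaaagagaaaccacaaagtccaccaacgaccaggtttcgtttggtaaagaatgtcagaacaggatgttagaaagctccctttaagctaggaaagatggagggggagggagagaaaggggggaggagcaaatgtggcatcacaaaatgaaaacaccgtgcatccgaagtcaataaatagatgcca
Trem2: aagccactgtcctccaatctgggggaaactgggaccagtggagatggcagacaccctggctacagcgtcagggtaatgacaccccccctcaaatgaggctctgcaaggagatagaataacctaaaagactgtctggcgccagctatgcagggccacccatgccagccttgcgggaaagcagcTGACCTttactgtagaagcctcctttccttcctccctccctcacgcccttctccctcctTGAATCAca
Cd36: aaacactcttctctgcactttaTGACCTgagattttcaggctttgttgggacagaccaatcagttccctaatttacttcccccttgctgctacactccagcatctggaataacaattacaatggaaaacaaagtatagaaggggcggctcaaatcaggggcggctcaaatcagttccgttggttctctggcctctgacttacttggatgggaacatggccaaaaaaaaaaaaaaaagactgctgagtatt
The Spp1 window holds GAGGAAGT as printed, its first base 113 bases before the start. The Trem2 window holds TGANTCA, here TGAATCA, 9 bases before the start and AGGTCA as its reverse complement 68 bases before it. The Cd36 window holds AGGTCA as its reverse complement 228 bases before the start, and the Gpnmb window holds none of the 4. Over all 32851 promoter windows of this length, 6.02% held CACGTG, 6.75% TGANTCA, 14% AGGTCA and 2.44% GAGGAAGT. The table gave 10 windows for 7 members, and no member window held CACGTG. A match is a description of these letters, not a site.

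The members lie on 7 chromosomes of GRCm38, all annotated as protein-coding. Fabp5 (ENSMUSG00000027533, chr3:10012548-10016607, +) and Fabp4 (ENSMUSG00000062515, chr3:10204088-10208576, -) lie within one gene cluster. Gpnmb (ENSMUSG00000029816, chr6:49036546-49070929, +) and Cd9 (ENSMUSG00000030342, chr6:125460266-125494791, -) share chromosome 6, and Cd36 (ENSMUSG00000002944, chr5:17781690-17888801, -) and Spp1 (ENSMUSG00000029304, chr5:104435118-104441050, +) share chromosome 5. The others are Apoe (ENSMUSG00000002985, chr7:19696109-19699188, -), Lpl (ENSMUSG00000015568, chr8:68880491-68907448, +), Lgals3 (ENSMUSG00000050335, chr14:47367751-47386160, +) and Trem2 (ENSMUSG00000023992, chr17:48346401-48354147, +).

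The libraries held 8126 to 12027 barcodes and 32906493 to 111214201 UMIs (unique molecules), and library pairs shared 21 to 46 barcode sequences. After filters, 9911 KO and 7457 WT bone marrow cells and 10371 KO and 10541 WT tumor cells remained, with median depths of 2750, 2240, 7892 and 6401 UMIs. S100a8 gave 6 UMIs in KO and 2016490 in WT marrow, and 82 in KO and 11556 in WT tumor, which goes with the genotype labels. Classes were rebuilt by clustering without the 10 members and carry names such as "macrophage-like" from marker genes. Levels are UMI counts scaled to one common total per class (CPM), each gene is compared only with itself, and a gene is called higher or lower from 1.5-fold on, where at least 50 UMIs were counted.

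Monocyte/macrophage-like cells were 4995 of the KO and 2433 of the WT tumor cells, or 48.2% and 23.1%, with median depths of 10245 and 8020 UMIs. They held most of the UMIs of several members: 96.7% of Trem2 UMIs in the KO library and 88% in WT, and 96.2% and 88.2% of Apoe UMIs. Lpl had 94% and 81.1% of its UMIs there, Gpnmb 86.8% and 78%, and Cd36 87.2% and 77.1%. Cd9 was spread differently, with 38% of its UMIs there in KO and 23.9% in WT, while tumor neutrophil-like cells held 50.7% and 8.88%. Spp1 had 68.6% and 43% of its UMIs in the class, Lgals3 87.2% and 56.2% and Fabp5 81.3% and 40.2%. Fabp5 reached its highest cluster level in migratory dendritic-like cells, at 2464 and 2640 CPM from 88 and 326 cells. Fabp4 had 442 of 667 UMIs in the monocyte/macrophage-like class in KO and 293 of 626 in WT. A single stromal-like KO cell held 204 of the 667. Trem2, Apoe, Lpl, Gpnmb and Cd36 thus each had at least 77.1% of their UMIs in this class in both libraries. Over all genes, the class held 54002556 of 91802265 UMIs in KO and 21239999 of 84763339 in WT. The heatmaps by tumor cluster show this spread.

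**Figure D1:**
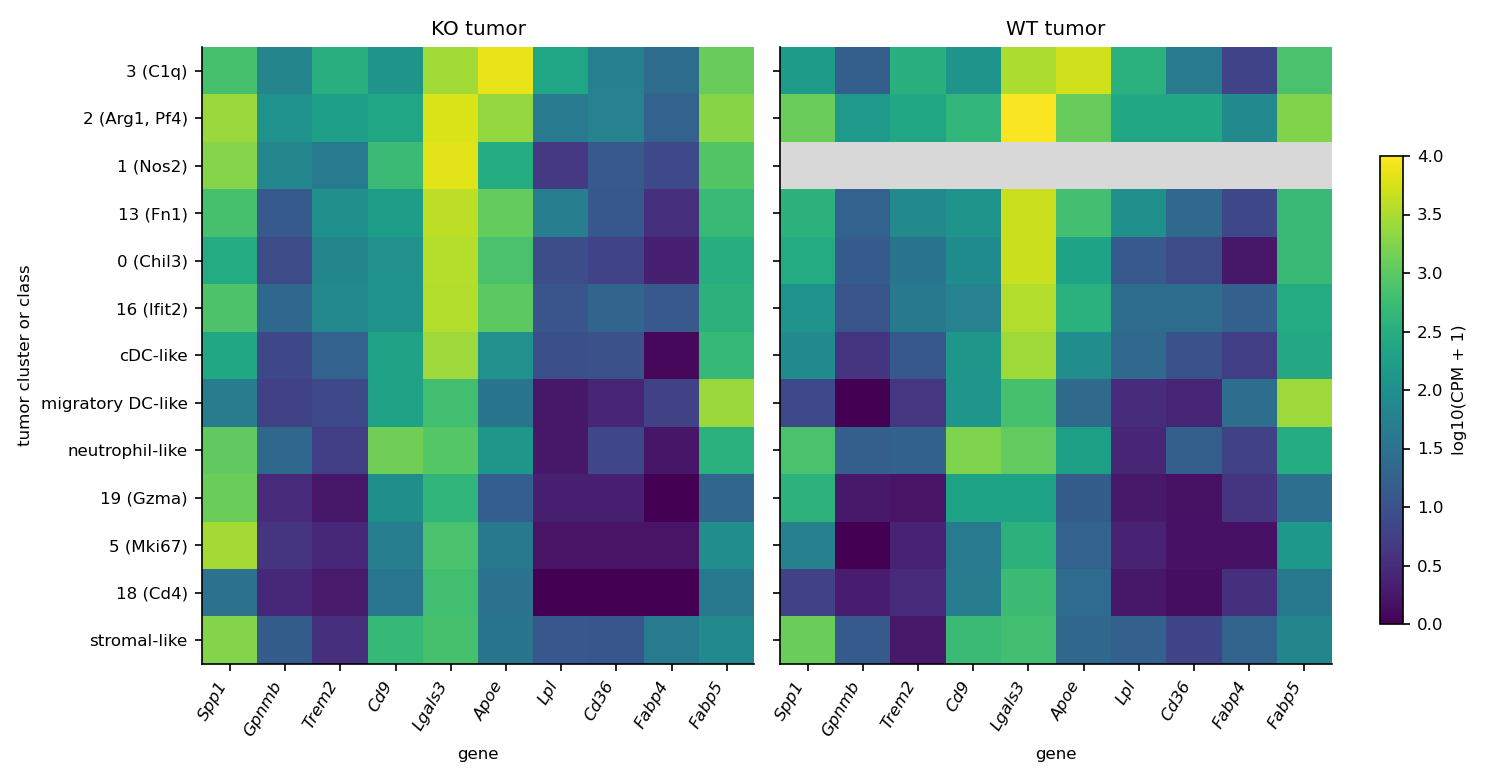
Level of each member (columns) in each tumor cluster or class (lines of the grid), KO left and WT right, on a log10(CPM + 1) color scale, with grey where a library has under 50 cells. Trem2, Apoe and Lpl are brightest in cluster 3 in both libraries, and Cd9 in the neutrophil-like class, while the bright Spp1 field of KO cluster 5 rests on 1 cell with 4241 of its 4801 UMIs.

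In tumor monocyte/macrophage-like cells, Spp1 was 3.79-fold higher in KO, Gpnmb 2.09-fold, Cd9 1.97-fold and Fabp5 1.59-fold, while Lpl, Cd36 and Fabp4 were lower and Apoe, Trem2 and Lgals3 lay within 1.5-fold. So 4 of the 10 members were higher and 3 lower in the summed class. Clusters were also weighted alike in KO and WT, each by its share of the cells of both libraries together, not equally. With 5 clusters of the class so weighted, of the 4 higher members only Spp1 (2.10) remained higher. Fabp5 then had a ratio of 1.10, and Gpnmb (0.944) and Cd9 (0.883) turned below 1. Over all 11160 genes measured in the class, 6.69% were higher and 20.1% lower. The members' median log2 ratio was 0.14 and that of all genes -0.23, so more genes sat lower than higher in KO. Relative to the median gene, Fabp4 and Cd36 no longer reached 1.5-fold (ratios of 0.694 and 0.671), Lpl remained lower, and the 4 higher members remained higher.

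Of the secreted and surface members, Spp1 was at 1310 CPM (95% interval 1300 to 1319) in KO and 345.9 CPM (338 to 353.9) in WT, a ratio of 3.79 (3.70 to 3.88). Gpnmb was at 50.8 CPM in KO against 24.3 CPM in WT, a ratio of 2.09 (1.90 to 2.30). Cd9 was at 254 CPM in KO against 129 CPM in WT, a ratio of 1.97 (1.89 to 2.05). All 3 summed levels were higher in the KO library with intervals apart, which for Gpnmb and Cd9 did not hold with clusters weighted alike. Trem2, the lipid receptor, was at 104 CPM in KO against 111 CPM in WT, a ratio of 0.936 (0.892 to 0.983). The median gene of the class had a ratio of 0.855. With clusters weighted alike, Trem2 had a ratio of 1.04, so the direction of its small summed difference did not hold. Lgals3 was at 4883 CPM in KO against 4598 CPM in WT, a ratio of 1.06, and was near level.

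Of the lipoprotein members, Apoe was at 1345 CPM in KO against 1170 CPM in WT, a ratio of 1.15 (1.13 to 1.17). Lpl was at 32.0 CPM in KO against 118 CPM in WT, and so 3.69-fold (3.47 to 3.93) higher in WT. Cd36 was at 23.4 CPM in KO against 40.7 CPM in WT, 1.74-fold higher in WT. The enzyme that frees fatty acids and the receptor that takes them up were both lower in KO. The fatty acid carriers went opposite ways. Fabp4 was at 8.19 CPM in KO against 13.8 CPM in WT, 1.69-fold (1.45 to 1.96) higher in WT, and Fabp5 at 907 CPM in KO against 569 CPM in WT, a ratio of 1.59 (1.56 to 1.63).

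**Figure D2:**
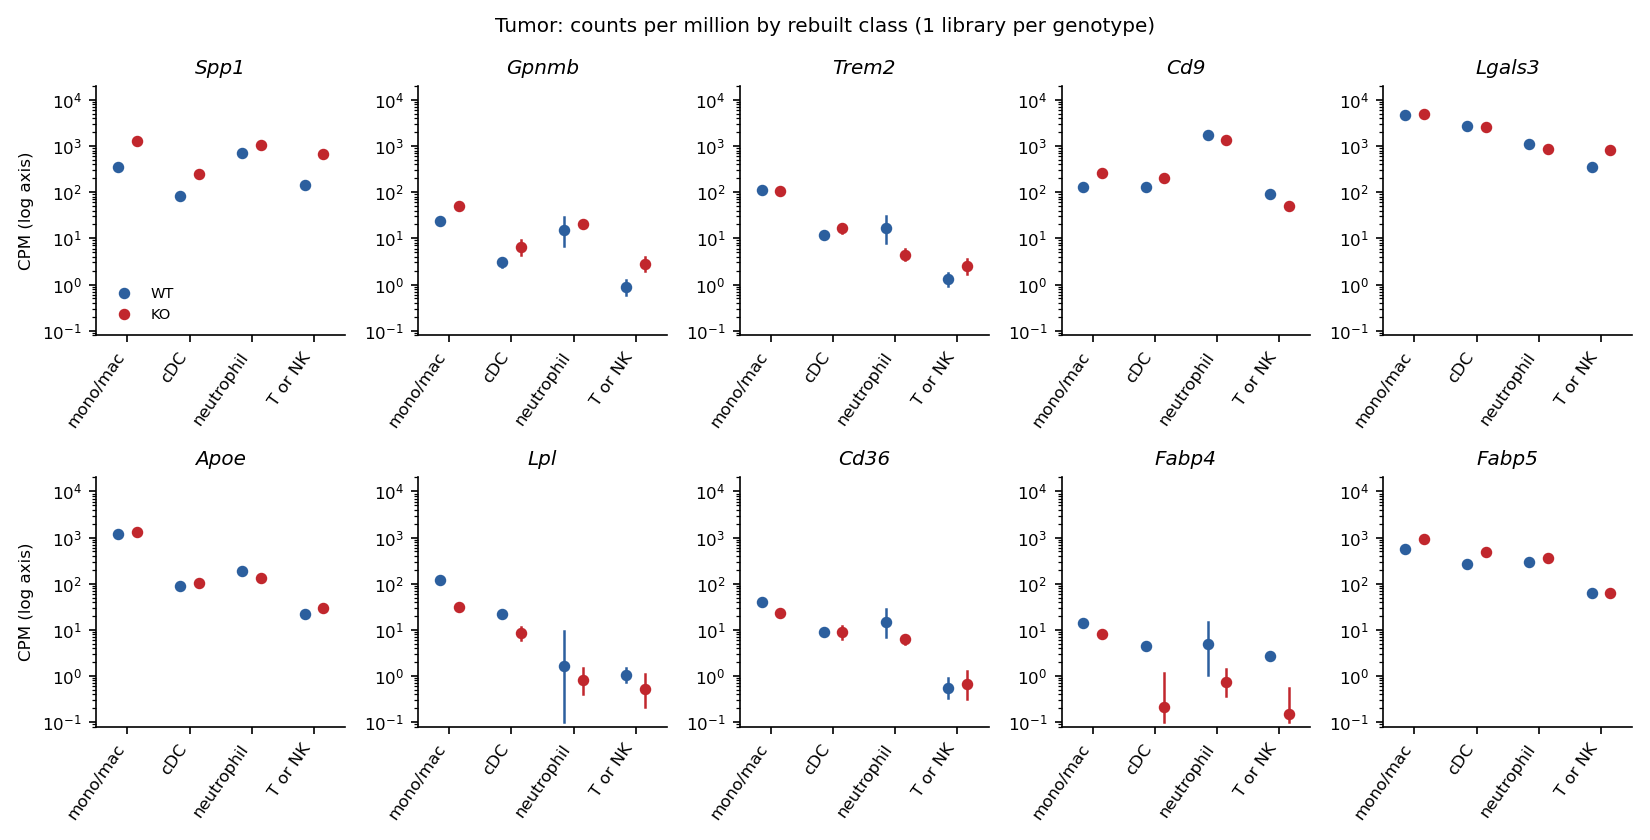
CPM (log axis) of each member in tumor monocyte/macrophage-like, conventional dendritic-like, neutrophil-like and T- or NK-like cells, KO in red and WT in blue, with 95% Poisson intervals of the summed UMIs as bars. In the first class Spp1 sits at 1310 CPM in KO against 345.9 CPM in WT, and Lpl at 32.0 and 118 CPM.

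The share of cells with the gene followed the levels when every cell was thinned to 1000 UMIs, which left out 79 KO and 63 WT cells of the class. Spp1 was detected in 32.7% of thinned KO cells and 12.2% of WT cells (59.9% and 26.3% without thinning). In the lymphoid T-like or NK-like class, whose median depths were 6295 and 5098 UMIs and in which free RNA is a possible source, the thinned Spp1 shares were 7.29% and 3.99% (12 KO and 35 WT cells left out). Apoe was detected in 36.8% of KO and 27.1% of WT cells, against 2.88% and 1.82% in that class. Lpl was detected in 1.55% of KO and 6.08% of WT cells, the reverse order. Trem2 was near level, with 8.34% and 8.06%.

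A few cells held much of some members. In the class, the 5% of cells richest in Lpl held 96.9% of its UMIs in KO and 76.2% in WT, and for Gpnmb the values were 79.4% and 84.7%. Spp1 was less concentrated in KO, where the richest 5% held 47.8% of its UMIs against 71.1% in WT, while Lgals3 was spread widely at 17.6% and 18.6%. At 1000 UMIs per cell, 14.6% of KO and 8.57% of WT cells had at least 4 of the 10 members. In cluster 2 of the class (described below), where such cells were most common, the order was turned, with 33.9% of KO and 38.3% of WT cells, and in cluster 3 the shares were 15.6% and 14.1%. Spp1 and Apoe were found together in 11.6% of KO and 3.80% of WT cells. Among KO cells with Spp1, 35.4% also had Apoe, against 37.5% of KO cells without Spp1, so cells with Spp1 were not richer in Apoe there. In WT the shares were 31.1% and 26.5%.

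The class is made up differently in the libraries. Cluster 0 (Chil3, Mgst1, Dmkn, Vcan, Ifitm6), cluster 1 (Serpinb2, Nos2, Cxcl1, Inhba, Csf3) and cluster 2 (Ppbp, Pf4, Arg1, Ccl24, Pdpn) together held 72.7% of the KO cells of the class and 14.3% of the WT cells. Cluster 13 (with Lyz2, Fn1, Clec4n and Clec4a3 among its leading genes) and cluster 16 (Phf11d, Ifit2, Ms4a4c, Cfb, Mgst1) held 20.3% and 69.9%. Cluster 3 (Ccl8, C1qa, C1qb, C1qc, Lyz1) had 354 KO and 386 WT cells. Cluster 1 had 1315 KO and 17 WT cells and is not compared, which leaves 5 clusters.

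Within clusters, Spp1 was at 2501 CPM in KO against 1241 CPM in WT in cluster 2, at 690 and 158 CPM in cluster 3, at 682 and 371 CPM in cluster 13, at 762 and 113 CPM in cluster 16 and at 290 and 293 CPM in cluster 0. Spp1 was at least 1.5-fold higher in KO in 4 of 5 clusters, with ratios from 0.991 in cluster 0 to 6.74 in the interferon-gene cluster 16. Other genes moved inside these clusters as well. In cluster 16, 6 interferon genes such as Ifit1 were at a summed 9619 CPM in KO and 3452 in WT, and 6 inflammatory genes such as Serpinb2 and Cxcl1 at 15738 and 8069. The inflammatory genes were at 33576 and 18081 CPM in cluster 2 and at 5034 and 1914 CPM in cluster 3, and their part in the Spp1 ratios was not tested. With the 5 clusters weighted alike in both libraries, Spp1 was at 978 CPM in KO against 467 CPM in WT, a ratio of 2.10. Over all genes measured, the shares higher in KO were 8.21% in cluster 0, 10.6% in cluster 2, 8.85% in cluster 3, 3.07% in cluster 13 and 5.9% in cluster 16.

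Apoe was higher in KO in all 5 clusters, by 1.42-fold in cluster 3 up to 3.35-fold in cluster 0, although the summed class differed by only 1.15-fold. It stood at 7322 CPM in KO against 5173 CPM in WT in the C1q cluster 3, where its level was highest, and at 303 CPM in the large KO cluster 1. Apoe with clusters weighted alike was 1.72-fold higher in KO (1998 and 1162 CPM). Without cluster 1 the summed ratio was 1.46, without cluster 3 it was 1.85, and without cluster 13 it was 0.857. The summed Apoe value therefore moved with the makeup of the class.

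Lpl was lower in KO by at least 1.5-fold in 5 of 5 clusters, where the shares of all genes measured that were lower were 11.5% (cluster 0), 9.51% (cluster 2), 5.72% (cluster 3), 7.46% (cluster 13) and 19.6% (cluster 16). It was at 45.3 CPM in KO against 237 CPM in WT in cluster 2, 5.24-fold higher in WT, and at 227 and 356 CPM in cluster 3, where it was highest in both libraries. Its ratio in cluster 0 was 0.660 with an interval of 0.384 to 1.22, which includes no difference. Cd36 was not lower throughout. Cd36 was at 59.3 CPM in KO against 241 CPM in WT in cluster 2, but at 56.7 and 41.8 CPM in cluster 3. Fabp4 was at 17.2 CPM in KO against 78.3 CPM in WT in cluster 2, the cluster where its WT level was highest. In cluster 3 Fabp4 gave 64 UMIs in KO and 15 in WT, but 1 KO cell held 39 of the 64, and without it the levels were 10.0 and 5.40 CPM. So the Arg1 and Pf4 cluster held less of all 3 in KO.

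Gpnmb, Cd9 and Fabp5 depended on the cluster. Gpnmb was at 109 CPM in KO against 144 CPM in WT in cluster 2, its highest cluster in both libraries, and at 65.9 and 15.5 CPM in cluster 3, from 166 and 43 UMIs. A single KO cell held 71 of the 166, and without it Gpnmb was at 37.9 CPM in KO cluster 3, a ratio of 2.45. Cd9 was at 225 CPM in KO against 449 CPM in WT in cluster 2, level at 117 CPM in both in cluster 3, and at 108 and 57.9 CPM in cluster 16. With clusters weighted alike, the ratios of Gpnmb and Cd9 were 0.944 and 0.883, so the direction of their summed difference did not hold. Cd9 was at 529 CPM in KO cluster 1, and without that cluster its summed ratio was 1.25. Fabp5 weighted alike had a ratio of 1.10, and without cluster 2 its summed ratio was 1.26.

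Trem2 was highest in cluster 3, at 316 CPM in KO against 342 CPM in WT, and second in cluster 2, at 180 and 242 CPM. Neither difference reached 1.5-fold, and in cluster 3 the counting intervals overlapped. Trem2 was at least 1.5-fold higher in KO in cluster 0, at 68.4 and 33.6 CPM, and in cluster 16, at 76.7 and 40.8 CPM. In cluster 13 it was at 101 and 76.8 CPM. Lgals3 was near or below its WT level in all 5 clusters, with ratios from 0.623 in cluster 2 (5873 and 9434 CPM) to 1.00 in cluster 16, while its summed ratio was 1.06.

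**Figure D3:**
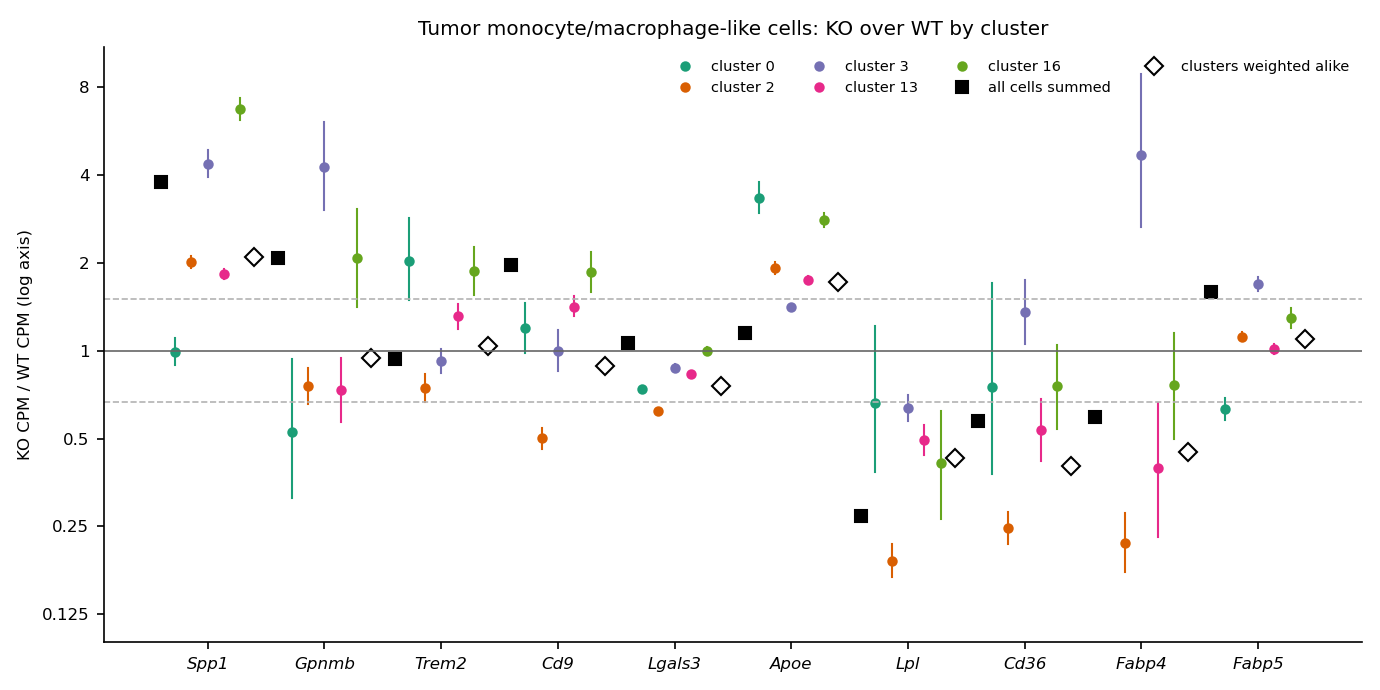
KO over WT ratio (log axis) of each member in monocyte/macrophage-like clusters 0, 2, 3, 13 and 16 (colored points with 95% counting intervals), with all cells of the class summed (black squares) and the clusters weighted alike (open diamonds). Dashed lines mark 1.5-fold. Apoe lies above 1 and Lpl below 1 in all 5 clusters.

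Markers listed for other cells also differed between the libraries. Summed mature neutrophil markers were at 13915 CPM in KO against 6994 CPM in WT, with 6 of 10 higher, 1 lower and none at 0. That list holds Il1b, which is also among the inflammatory genes above, so it is not exclusive to other cells. Megakaryocyte and platelet markers, among them the cluster 2 genes Pf4 and Ppbp, were at 2143 and 542 CPM, with 2 of 6 at 0 in WT. T cell markers were at 21.4 CPM in KO against 108 CPM in WT, with 9 of 9 lower, and NK markers at 20.8 and 129 CPM, with 6 of 6 lower. Conventional dendritic markers were at 274 CPM in KO against 498 CPM in WT for the cDC2 list, with 6 of 8 lower and 1 higher. The cDC1 list was at 290 and 518 CPM and plasmacytoid dendritic markers at 349 and 745 CPM. Migratory dendritic markers were near level, at 97.9 and 91.8 CPM. The cDC2 list holds Itgax, which also appears in a list below. Macrophage markers were at 4984 and 4046 CPM and monocyte markers at 5935 and 9186 CPM. Their part in the member ratios was not tested.

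Other genes of the members' pathways were counted in 9 lists, none of which holds a member. Of 142 genes, 135 were measured in the class, 18 of them higher and 30 lower. Over all genes measured in the class, 6.69% were higher and 20.1% lower, and these shares stand beside each list below. The median log2 ratio of the list genes was -0.13, against -0.23 for all genes. With clusters weighted alike, 15 of the list genes were lower. Around Trem2, 0 of 8 adaptor and signaling genes were higher and 1 was lower, against 6.69% and 20.1% of all genes. The lower gene, Plcg2, was 1.58-fold higher in WT, and without cluster 1 the counts were 0 and 0. The kinase Syk was at 208 CPM in KO against 165 CPM in WT. Of 8 osteopontin receptors, 3 were higher and 2 lower (2 and 2 without cluster 1), against 6.69% and 20.1% of all genes. Their median log2 was 0.36. The integrin subunit Itgav, a partner in osteopontin binding, was at 46.2 CPM in KO against 24.9 CPM in WT, and Itga9 at 4.80 and 1.65 CPM. Itga4 was at 59.0 and 117 CPM, higher in WT.

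Of 17 cholesterol efflux and LXR genes, 3 were higher and 3 lower, against 6.69% and 20.1% of all genes. Their median log2 was -0.03, and without cluster 1 the counts were 3 and 1. Abca1, which loads cholesterol onto apolipoproteins, was at 265.5 CPM in KO against 30.9 CPM in WT, 8.60-fold higher. Abcg1, a second cholesterol exporter, was at 32.3 CPM in KO against 53.6 CPM in WT and went the other way. Apoc1 and Apoc2, apolipoproteins from the same gene cluster as Apoe, were 3.32-fold and 1.54-fold higher in KO. Of 18 cholesterol synthesis genes, 0 were higher and 8 lower (0 and 9 without cluster 1). Their median log2 was -0.43, and over all genes of the class 6.69% were higher and 20.1% lower. Fdps, which makes farnesyl diphosphate, was at 76.3 CPM in KO against 155 CPM in WT.

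Of 25 fatty acid and PPAR genes, 2 were higher and 5 lower, against 6.69% and 20.1% of all genes. Their median log2 of -0.23 was near that of all genes, and without cluster 1 the counts were 3 and 4. Hilpda, a lipid droplet protein that inhibits triglyceride lipase, was at 943 CPM in KO against 304 CPM in WT. Pparg, the nuclear receptor that controls Fabp4, Cd36 and Lpl in fat cells, was at 2.00 CPM in KO against 9.61 CPM in WT, 4.80-fold higher in WT. Of 10 scavenger receptors other than Cd36, 6 were higher and 0 lower, against 6.69% and 20.1% of all genes. Their median log2 was 0.61, and without cluster 1 the counts were 7 and 0. Mrc1 was at 396 CPM in KO against 210 CPM in WT, and Msr1, which takes up modified lipoproteins, at 321 and 190 CPM.

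Of 19 other genes of the lipid-associated macrophage program, 2 were higher and 7 lower, against 6.69% and 20.1% of all genes. Their median log2 was -0.26, against -0.23 for all genes, and without cluster 1 the counts were 2 and 6. The protease Ctsl was at 1141 CPM in KO against 405 CPM in WT, while Axl, a receptor for dying cells, was at 6.85 and 34.4 CPM and Itgax was 2.38-fold higher in WT. Of 19 lysosome genes, 1 was higher and 1 lower (0 and 1 without cluster 1), against 6.69% and 20.1% of all genes. Their median log2 was -0.01. The called genes were the factors Tfec (1.62-fold higher in KO) and Tfeb (1.86-fold higher in WT). Of 11 other tetraspanins and galectins, 1 was higher and 3 lower, against 6.69% and 20.1% of all genes. Their median log2 was 0.01, and without cluster 1 the counts were 1 and 2. The higher gene was Tspan3, at 107 CPM in KO against 35.1 CPM in WT.

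**Figure D4:**
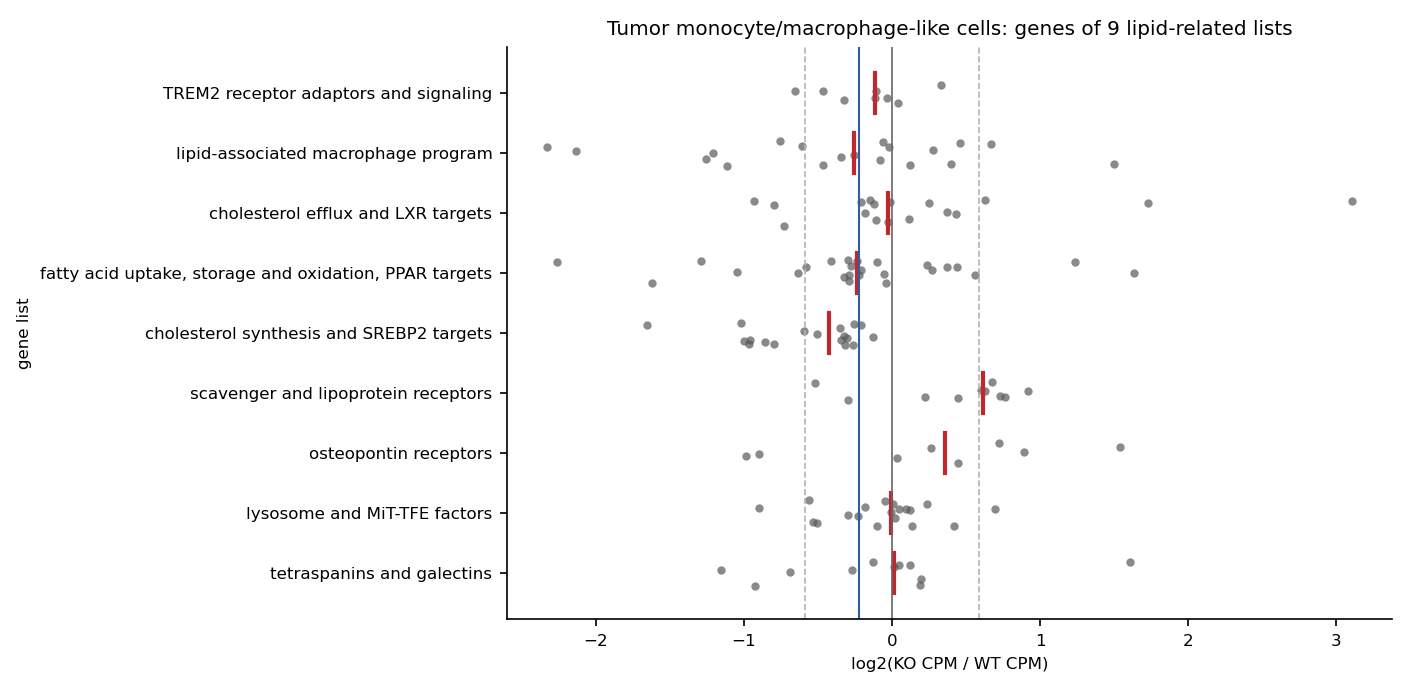
Log2 ratio of KO over WT in tumor monocyte/macrophage-like cells for each measured gene of the 9 lists (points), with each list's median (red bar), the median of all measured genes (blue line, -0.23) and 1.5-fold (dashed). Scavenger receptors lie highest, with a median of 0.61, and cholesterol synthesis genes lowest, at -0.43.

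By tumor cluster, the genes whose levels went most with a member were taken over 44 cluster-by-library profiles, as Pearson's r of log2(CPM + 1). These profiles share libraries and are no replicates. Some rest on single cells: in KO cluster 5, 1 cell held 4241 of 4801 Spp1 UMIs. In KO stromal-like cells, 1 cell held 204 of 206 Fabp4 UMIs and 1 held 40 of 51 Cd36 UMIs. The part of such cells in r was not tested. Spp1 went most with Pgam1 (r of 0.835), Tpi1 (0.799) and Fam162a (0.789), the first 2 being enzymes of glycolysis. Trem2 went with F13a1 (0.940) and C3ar1 (0.923), and Apoe with Adgre1 (0.912), C3ar1 (0.881) and Rab1a (0.880). Gpnmb went with Lhfpl2 (0.875), Hmox1 (0.872) and the protease Ctsl (0.870), and Lpl with Lyz1 (0.882), Abca9 (0.874) and Myof (0.863). Lgals3 went with Ccl9 (0.901), Fcgr1 (0.899) and Tgfbi (0.899), Cd36 with Blvrb (0.845), Lamtor3 (0.832) and Map3k20 (0.831), and Cd9 with Dhrs9 (0.872), Ptgs2os2 (0.844) and F3 (0.839). Fabp5 went with Cxcl16 (0.859), Anxa3 (0.834) and Nrg1 (0.833). Fabp4 had the weakest likeness, with Slc6a8 (0.703), Flrt2 (0.701) and Nrp2 (0.692). Among the members themselves, Apoe and Trem2 had an r of 0.867, Spp1 and Cd9 0.693, and Spp1 and Apoe 0.408.

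Conventional dendritic-like cells of the tumor, 280 in KO and 1595 in WT with median depths of 14832 and 12497 UMIs, also had Spp1 higher and Lpl lower in KO. In all, 4 of 10 members were higher and 2 lower, against 5.97% and 10.9% of all genes measured. Spp1 was at 252 CPM in KO against 84.2 CPM in WT, a ratio of 3.00. The richest 5% of cells held 71.8% of its UMIs in KO and 80.1% in WT. Spp1 levels were higher in the T-like or NK-like class, where free RNA is a possible source. Without the richest KO cell, Spp1 was at 340.9 and 144.1 CPM there, a ratio of 2.37. The part of free RNA in the dendritic-like ratio was not tested. Fabp5 was at 485 and 263 CPM, Gpnmb at 6.38 and 3.03 CPM, and Cd9 at 200 and 132 CPM, all higher in KO. Lpl was at 8.51 CPM in KO against 22.6 CPM in WT. Fabp4 was counted in 1 UMI in KO and 99 in WT, or 0.213 and 4.47 CPM, a ratio of 0.0476 (0.00119 to 0.271). A single WT cell held 57 of the 99, without which the WT level was 1.90 CPM and the ratio 0.112, and with doublets kept the ratio was 0.53. In the T-like or NK-like class Fabp4 was at 0.152 and 2.71 CPM, so it was higher in WT also where free RNA is a possible source. Apoe, Trem2, Cd36 and Lgals3 lay within 1.5-fold, Lgals3 at 2611 and 2686 CPM. With dendritic clusters 8 and 14 weighted alike, Trem2 (1.79) and Apoe (1.56) passed 1.5-fold toward KO and Cd36 (0.659) toward WT, while Gpnmb (1.42) no longer did. Mature neutrophil markers in the class were at 7256 CPM in KO and 4288 in WT (7 of 8 measured higher), migratory dendritic markers at 663.9 and 351.5 CPM (5 of 7 higher) and T cell markers at 391.8 and 913.4 CPM (9 of 9 lower), and their part in these ratios was not tested. With every cell thinned to 1000 UMIs, 2 were higher and 0 lower.

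Tumor neutrophil-like cells were 3106 in KO and 225 in WT, with median depths of 3798 and 2438 UMIs. Of 8 members measured there, 0 were higher and 2 lower, against 12.1% and 38.3% of all genes measured, and Lpl (11 and 1 UMIs) and Fabp4 (10 and 3 UMIs) were too few. Cd9 had its highest cluster level here in both libraries, at 1649 and 1768 CPM in cluster 11 (G0s2, Lrg1, Cxcr2, Cstdc4, Retnlg). Over the class Cd9 was at 1381 CPM in KO against 1695 CPM in WT, a ratio of 0.814. The median gene of the class had a ratio of 0.792. Spp1 was at 1045 CPM in KO against 706 CPM in WT, a ratio of 1.48, just under the threshold. The thinned Cd9 shares were 67.0% and 73.0% of cells, and those of Spp1 26.7% and 22.3%, with 57 KO and 14 WT cells left out. Trem2 (59 and 10 UMIs) and Cd36 (82 and 9 UMIs, 40 of the 82 in 1 cell) were the lower ones. The WT class held T cell markers at 292 CPM against 21.6 CPM in KO and monocyte markers at 2044 against 1274 CPM, and their part in these ratios was not tested.

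Over the whole tumor libraries, which add the difference in cell makeup, Spp1 was at 1122 CPM in KO against 201.8 CPM in WT, a ratio of 5.56. In all, 7 of the 10 members were higher and 1 lower, against 13.7% and 30.4% of all genes measured. Trem2 had a ratio of 2.00 and Apoe of 2.48, although both lay within 1.5-fold inside the monocyte/macrophage-like class, which was 48.2% of KO and 23.1% of WT cells. Lpl was the lower one, with a ratio of 0.549. Fabp4 (0.984) and Cd36 (1.19) lay within 1.5-fold, though 1 stromal-like KO cell held 204 of the 667 KO Fabp4 UMIs.

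In tumor-free bone marrow, no measured member differed by 1.5-fold in monocyte-like cells and Lgals3 did in neutrophil-like cells. Monocyte-like cells, 513 in KO and 464 in WT with median depths of 6345 and 4878 UMIs, had 6 members measured, 0 higher and 0 lower, against 3.05% and 2.9% of all genes measured. Lgals3 was at 1484 CPM in KO against 1356 CPM in WT, Apoe at 155 and 190 CPM, and Lpl at 60.6 and 86.3 CPM. Fabp5 was at 109 CPM in both, and Trem2 at 30.4 and 23.3 CPM. Spp1 gave 28 and 16 UMIs, under the minimum for a call, with a ratio of 1.17 and a counting interval of 0.612 to 2.32. That interval lies below the summed 3.79 of the tumor class but holds its 2.10 with clusters weighted alike. The difference between tissues was not tested. Gpnmb gave 9 and 6 UMIs in the whole marrow libraries.

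Marrow neutrophil-like cells, 6721 in KO and 3532 in WT, had 1 of 5 measured members higher and 0 lower, against 8.33% and 3.25% of all genes. The higher one was Lgals3, at 746 CPM in KO against 430 CPM in WT, a ratio of 1.74 (1.68 to 1.79). Among immature neutrophil-like cells Lgals3 was at 586 and 367 CPM, and among mature ones at 834 and 516 CPM, higher in KO at both stages. With S100a8, S100a9 and other abundant genes left out of the total, its ratio was 1.45, under the threshold, and the median gene of the class had a ratio of 1.14. Cd9 was at 486 CPM in KO against 352 CPM in WT, a ratio of 1.38. In tumor neutrophil-like cells both lay below 1, where the median gene of that class had a ratio of 0.792. Progenitor-like cells had 3 of 7 measured members higher and 1 lower, against 2.72% and 3.29%, with Lgals3 at 80.7 and 37.0 CPM and Apoe at 64.3 and 99.4 CPM. The other higher ones, Spp1 (46 and 16 UMIs, interval 0.878 to 2.99) and Lpl (48 and 16 UMIs, interval 0.92 to 3.11), had intervals that include no difference. Mature neutrophil markers in these cells were at 1035 CPM in KO and 552.8 in WT (6 of 10 higher) and megakaryocyte or platelet markers at 838.8 and 1502 CPM (5 of 6 lower), and their part was not tested.

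Apoe was high in a pair of unnamed marrow clusters. Cluster 20 (Ace, Adgre4, Cd209a among its leading genes; 145 KO and 101 WT cells) had Apoe at 1910 CPM in KO against 2152 CPM in WT, Fabp4 at 151 and 149 CPM and Cd36 at 157 and 171 CPM, all near level. Cluster 9 (Vcam1, Cxcl12, Fcna, C1qa, Mrc1; 169 KO and 90 WT cells) mixes cells with C1q genes and cells with stromal genes, and is not compared. Its Apoe was at 2308 and 2656 CPM, its Lpl at 660 and 382 CPM and its Fabp4 at 176 and 729 CPM. A single WT cell held 122 of the 149 WT Fabp4 UMIs, and without it Fabp4 was at 176 and 135 CPM.

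**Figure D5:**
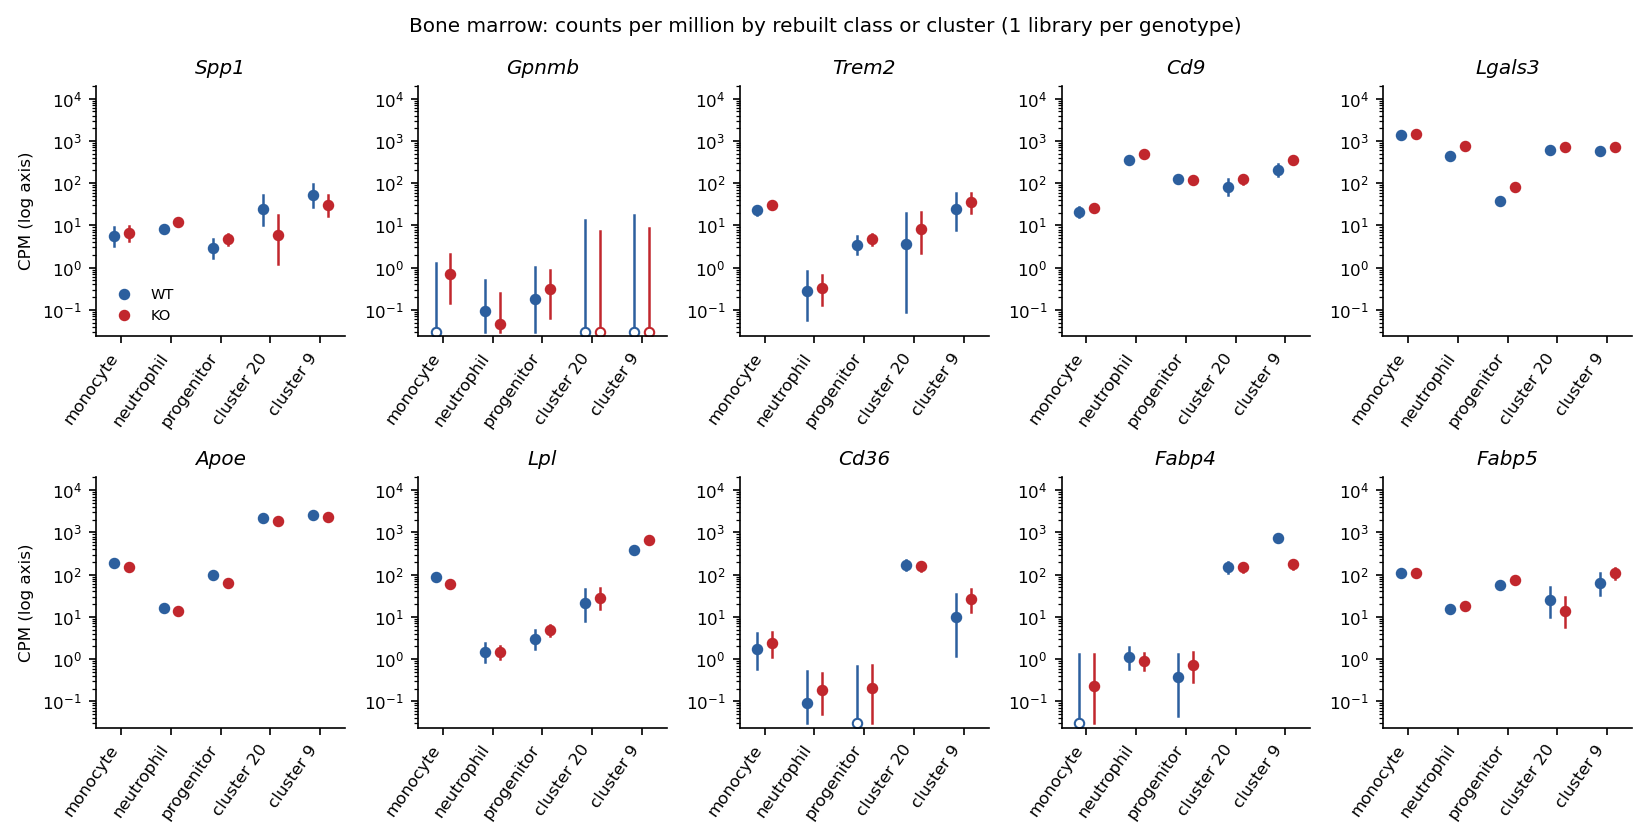
CPM (log axis) of each member in bone marrow monocyte-like, neutrophil-like and progenitor-like cells and in clusters 20 and 9, KO in red and WT in blue, with 95% Poisson intervals. Open circles at the axis floor mark 0 UMIs. Lgals3 in neutrophil-like cells sits at 746 CPM in KO against 430 CPM in WT, and Apoe in cluster 20 at 1910 and 2152 CPM.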

How the data were processed

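Single-cell RNA was sequenced from 4 libraries. The deposited files hold raw UMI counts, one matrix of genes by barcodes per library, made with Cell Ranger, per the file headers, whose format versions differ between the tissues, so bone marrow and tumor were never compared by level. Per the submitters' processing notes, the tools were R 4.2.1, Seurat 4.3.0 and Cell Ranger 6.1.2, with build mm10.

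Barcodes with under 200 genes or over 10% mitochondrial UMIs were dropped. Scrublet's automatic threshold marked no barcode in 2 libraries, so in all 4 the highest scores were removed at 0.8% per 1000 barcodes (6.37% to 9.29%). Cells were clustered per tissue with scanpy 1.11.5 and igraph 0.11.9 (2000 variable genes without the members, 30 components, 15 neighbors, Leiden resolution 1; python 3.11.15). Names came from listed markers, and a cluster against them stayed unnamed. UMIs were summed per library and class of at least 100 cells in each, with exact Poisson, Clopper-Pearson and conditional intervals at 95% (scipy 1.17.1). The script was tested on simulated data. Named genes were the members, up to 3 highest and 3 lowest genes of each list with at least 100 UMIs, of which examples are printed, and the 3 most alike by profile, with 1 gene not reported here. Alternatives covered doublets, clustering, depth, totals, centring and cluster weights; the last, leaving out clusters and leaving out the richest cell were chosen after seeing the data. The members and lists were chosen with earlier results of these data known.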

Additional observations from a re-analysis of the deposited data

Results flagged for a closer look

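Spp1 and Lgals3 also differed in single lymphoid clusters, which the myeloid comparisons do not use. In tumor cluster 5, a proliferating T or NK cluster with Mki67 (104 KO and 260 WT cells), Spp1 was at 2901 CPM in KO against 53.6 CPM in WT, a ratio of 54.17. A single KO cell held 4241 of the 4801 KO UMIs there, so that ratio rests on 1 cell, and without it Spp1 was at 354.4 CPM and the ratio was 6.62. In tumor cluster 19 (Gzma, Gzmc, Klra4; 218 KO and 1660 WT cells), Spp1 was at 1285 CPM in KO against 382 CPM in WT, a ratio of 3.366. It was detected in 21.6% of KO and 9.97% of WT cells thinned to 1000 UMIs, with summed macrophage markers at 75.2 and 82.0 CPM, mature neutrophil markers at 237 and 87.3 CPM and monocyte markers at 1887 and 1190 CPM. In tumor cluster 4 (Cd8b1, Gzmk, Cd8a), Lgals3 had a ratio of 3.418, with macrophage markers at 106 CPM in KO against 119 CPM in WT and mature neutrophil markers at 214 and 50.9 CPM. The part of these markers was not tested.

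Another 3 ratios pointed opposite ways in the tissues, and the difference between tissues was not tested. Apoe in monocyte/macrophage-like cells had a ratio of 0.814 in bone marrow (1.04 with doublets kept) and 1.149 in tumor. Cd9 in neutrophil-like cells had a ratio of 1.379 in bone marrow and 0.8143 in tumor. Lgals3 in neutrophil-like cells had a ratio of 1.735 in bone marrow and 0.8039 in tumor, and the 225 WT tumor cells limit the precision of both. The median gene of the neutrophil-like class had a ratio of 1.139 in bone marrow and 0.792 in tumor. The tumor ratios of Cd9 and Lgals3 lay near that of the median gene.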

How the results depend on the processing

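Depth limits Fabp4, Gpnmb and Cd36, which rest on under 100 UMIs in several clusters, and 1 library per genotype limits every ratio. No paired analysis was possible because each genotype and tissue has 1 library and no result comes from a test.

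In tumor monocyte/macrophage-like cells, weighting clusters 0, 2, 3, 13 and 16 alike, which also leaves out cluster 1, changed the higher members from 4 to 2 and the lower list genes from 30 to 15, and turned Gpnmb (0.944) and Cd9 (0.883) below 1. Relative to the median gene, 1 member in place of 3 was lower and 28 list genes in place of 18 were higher. Thinning left 19 list genes lower. Without cluster 0, 1 member was lower. Leaving out cluster 1 alone gave 3 members higher and 2 lower, and 25 list genes lower.

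In tumor conventional dendritic-like cells (4 higher and 2 lower), thinning gave 2 higher and 0 lower, a minimum of 200 UMIs gave 1 lower, and clusters weighted alike gave 5 higher and 3 lower. In tumor neutrophil-like cells (0 higher and 2 lower), 1 was higher when thinned and 2 relative to the median gene, while 0 were lower when thinned or from 200 UMIs, 1 by the mean over cells and 4 with clusters weighted alike.

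In bone marrow monocyte-like cells (0 higher and 0 lower), 3 were higher with doublets kept, 1 was higher at resolution 1.6 and 1 was lower when thinned. In bone marrow neutrophil-like cells (1 higher and 0 lower), 2 were higher with doublets kept, at resolution 0.6 or by the mean over cells, 0 were higher with abundant genes left out of the total, and 1 was lower by the mean over cells or with clusters weighted alike. The causes were not tested.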
